A study of Sus scrofa with 3 samples.

Results

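The glucocorticoid-responsive and clock genes PDK4, KLF9, CEBPD, FKBP5, PER1 and NFIL3 were followed across 3 lung arrays of a minipig model of ischemia-reperfusion injury. They are 6 of 6765 gene symbols on an Affymetrix porcine array, and 12 of the 10069 probe sets that carry a single gene symbol. The genes were chosen from their high signals against sham in an earlier reading of these same arrays, so their differences from sham are a description and carry no test. The probe sets were then found by gene symbol alone.

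Each group is 1 array of lung tissue from minipigs kept free of specific pathogens. The sham array comes from an animal with a sham operation. The operated array is the left lung of an animal whose left pulmonary artery was transiently occluded and then released, with the bronchus spared so that ventilation went on. The non-operated array is the right lung of an animal with the same procedure. The sources used here do not say whether a single animal gave both ischemia-reperfusion lungs, nor do they state strain, age, sampling time, length of reperfusion or any drug given to either group. A single array per group gives no measure of variation among animals, so no p-value is given.

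Glucocorticoids act through NR3C1, a nuclear receptor held in the cytoplasm by HSP90 and its co-chaperones. Once bound by hormone it enters the nucleus and switches on a set of genes that includes FKBP5, PER1, KLF9 and CEBPD in many tissues, the lung among them. The circadian clock is a feedback loop in which CLOCK and BMAL1 drive PER and CRY genes, whose proteins repress CLOCK and BMAL1. PER1 belongs to both systems, since the glucocorticoid receptor can induce it directly, and NFIL3 is a repressor on the output side of the clock that is also induced by cytokines.

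The values are log2 MAS5 signals, with each probe set condensed to 1 number on each array. A floor was set at each array's median, a log2 signal of 7.33 on the sham array and 7.31 on each of the other arrays, and values at or below it were set to it. Differences of log2 signal are given below as operated or non-operated minus sham, and 1 on that scale is 2-fold. A difference with 1 side at the floor is a lower bound. The pooled standard deviation of such differences between probe sets of the same gene was 0.39 for operated minus sham over 801 genes, 0.41 for non-operated minus sham over 783 genes and 0.22 for operated minus non-operated over 820 genes. It uses probe sets above the floor on both arrays. It measures disagreement among probe sets within these hybridisations, not among repeat hybridisations or animals.

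All 6 genes had a higher signal in both ischemia-reperfusion lungs than in sham, by at least 2-fold, and all 6 were slightly lower in the operated than in the non-operated lung. The median difference was 2.22 for operated minus sham, which is 4.67-fold, and 2.37 for non-operated minus sham, which is 5.18-fold. Among all 5097 genes counted in the first comparison 8.65% were at least 2-fold higher, and among 5113 in the second 8.96%. Since the genes were picked for being high, nothing is read from their count against that background. At 4-fold, 4 of the 6 were higher in the operated lung against a background of 1.63%, and 5 of the 6 in the non-operated lung against 1.6%.

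**Figure D1:**
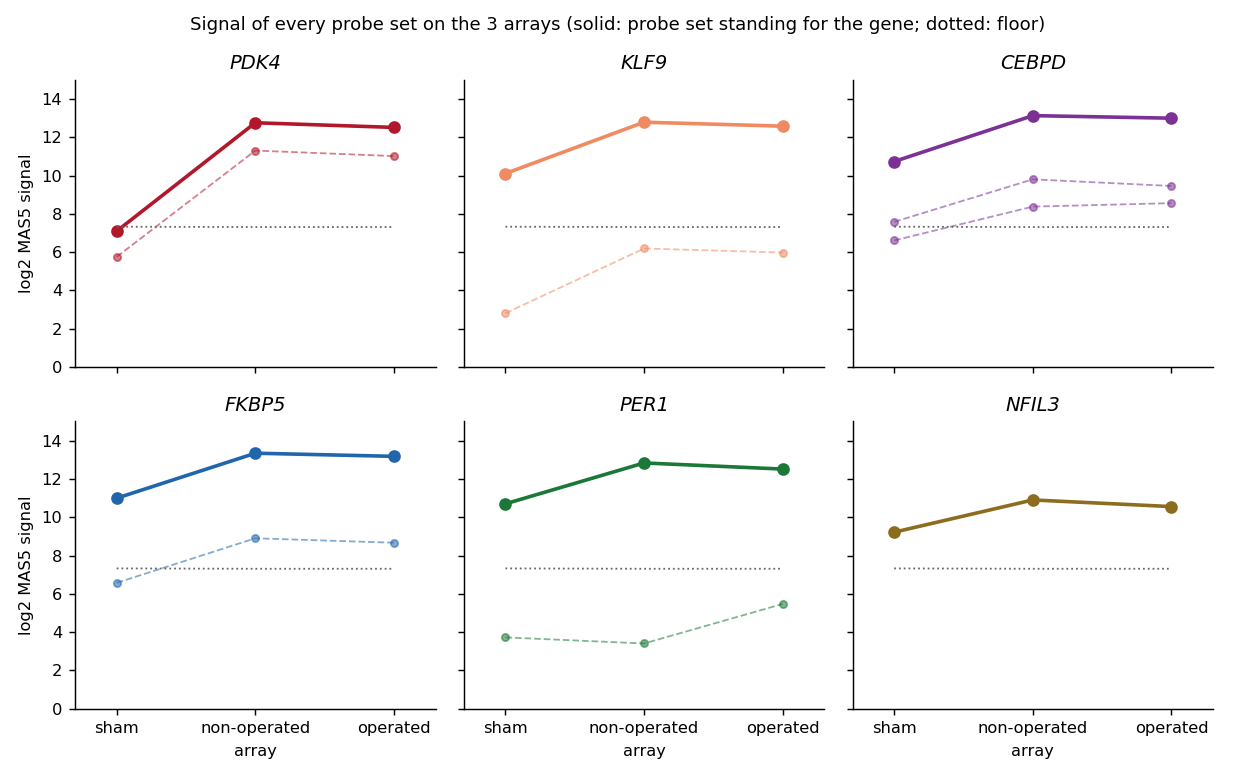
Log2 MAS5 signal (y axis) of each of the 12 probe sets on the sham, non-operated and operated arrays (x axis), with lines joining the values of 1 probe set. The solid line is the probe set that stands for the gene, dashed lines are its other probe sets, and the dotted line is the floor of each array. Each of the 10 probe sets above the floor on some array is lowest in sham.

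PDK4, a mitochondrial kinase that switches off the pyruvate dehydrogenase complex and so spares glucose, had the largest difference of the 6. Its leading probe set read 7.10 in sham, 12.75 in the non-operated lung and 12.51 in the operated lung on the log2 scale. The sham value lay below the floor, so PDK4 was at least 36.3-fold higher in the operated and at least 43.0-fold higher in the non-operated lung. The other PDK4 probe set read 5.75, 11.30 and 11.01, again with only sham below the floor, and its lower bounds were 3.69 and 3.97 on the log2 scale. Both probe sets therefore placed sham under the floor and both other lungs far above it.

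The transcription factor KLF9, a Krüppel-like repressor that dampens proliferation in several tissues, read 10.10 in sham, 12.78 in the non-operated and 12.58 in the operated lung. The differences from sham were 2.68 and 2.47, or 6.41-fold and 5.55-fold. A second probe set with the symbol KLF9 read 2.81, 6.19 and 5.98, below the floor on all 3 arrays. It carries another gene identifier, which RefSeq's list of genes for Sscrofa11.1, a pig assembly, does not hold. The differences given for KLF9 do not use it, and it enters only where probe sets are averaged or the weakest is taken.

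CEBPD encodes C/EBP delta, a basic leucine zipper factor of the acute phase and of early adipocyte and macrophage programmes. Its leading probe set read 10.73 in sham, 13.13 in the non-operated and 12.99 in the operated lung, differences of 2.40 and 2.26. A second probe set read 7.58, 9.80 and 9.45, differences of 2.22 and 1.87. The third read 6.61 in sham, below the floor, and 8.38 and 8.56 in the other lungs, with lower bounds of 1.05 and 1.23. All 3 probe sets were lowest in sham, but the order of both ischemia-reperfusion lungs was turned in the third.

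FKBP5, the co-chaperone that lowers the hormone affinity of the glucocorticoid receptor and is itself induced by it, read 10.99 in sham, 13.34 in the non-operated and 13.18 in the operated lung. These are differences of 2.35 and 2.18, or 5.09-fold and 4.54-fold. A second FKBP5 probe set read 6.57, 8.90 and 8.67, with sham under the floor and lower bounds of 1.57 and 1.34. Both probe sets were lowest in sham.

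PER1, a core repressor of the clock, read 10.70 in sham, 12.83 in the non-operated and 12.51 in the operated lung. The differences were 2.13 and 1.81, or 4.39-fold and 3.51-fold. Its other probe set read 3.73, 3.41 and 5.47, under the floor throughout, and gives no usable difference. The PER1 result therefore rests on 1 probe set, and with both averaged sham fell under the floor and the non-operated lung had a lower bound of 0.79, which does not reach 2-fold.

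NFIL3, also called E4BP4, represses genes through the same D-box element that the activator DBP binds. It has 1 probe set here, which read 9.22 in sham, 10.90 in the non-operated and 10.56 in the operated lung. The differences of 1.68 and 1.34, or 3.21-fold and 2.52-fold, were the smallest of the 6. By rank, 97.2% of all genes lay below NFIL3 in non-operated minus sham and 95.1% in operated minus sham. Genes under the floor in sham were taken at their bounds. NFIL3 was chosen for being high, so nothing is read from its rank.

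The 6 genes kept the same order by size in both comparisons with sham, from PDK4 through KLF9, CEBPD, FKBP5 and PER1 to NFIL3. Both comparisons use the same sham array, so this agreement is not independent. KLF9, CEBPD and FKBP5 lay within 0.29 of each other in operated minus sham and within 0.33 in non-operated minus sham, less than the spread between probe sets of a gene, and their order among themselves cannot be resolved. The gap from PDK4 to KLF9 was at least 2.71 in operated minus sham. PDK4 lay under the floor in sham, so the size of this gap depends on the floor and cannot be set against that spread. The other PDK4 probe set had a lower bound of 3.69. With the floor at each array's 75th percentile PDK4 was at 3.26 beside 2.47 for KLF9.

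Between both ischemia-reperfusion lungs the differences were small. Operated minus non-operated was -0.35 for NFIL3, -0.32 for PER1, -0.24 for PDK4, -0.21 for KLF9, -0.16 for FKBP5 and -0.13 for CEBPD. All 6 were thus below 0, as were 52.8% of the 4944 genes counted, and none of the 6 reached 2-fold. Across all genes the operated lung exceeded the other by 2-fold or more for 0.0607% and fell short of it by as much for 0.182%, and 95% of genes lay between -0.56 and 0.50. None of the 6 fell outside that range, and for KLF9, FKBP5 and CEBPD the difference was smaller than the spread of 0.22 between probe sets of a gene. By probe set, 9 of the 10 above the floor were lower in the operated lung and 1, the third of CEBPD, was higher. With all probe sets averaged, PER1 lay on the other side of 0 at 0.87.

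**Figure D2:**
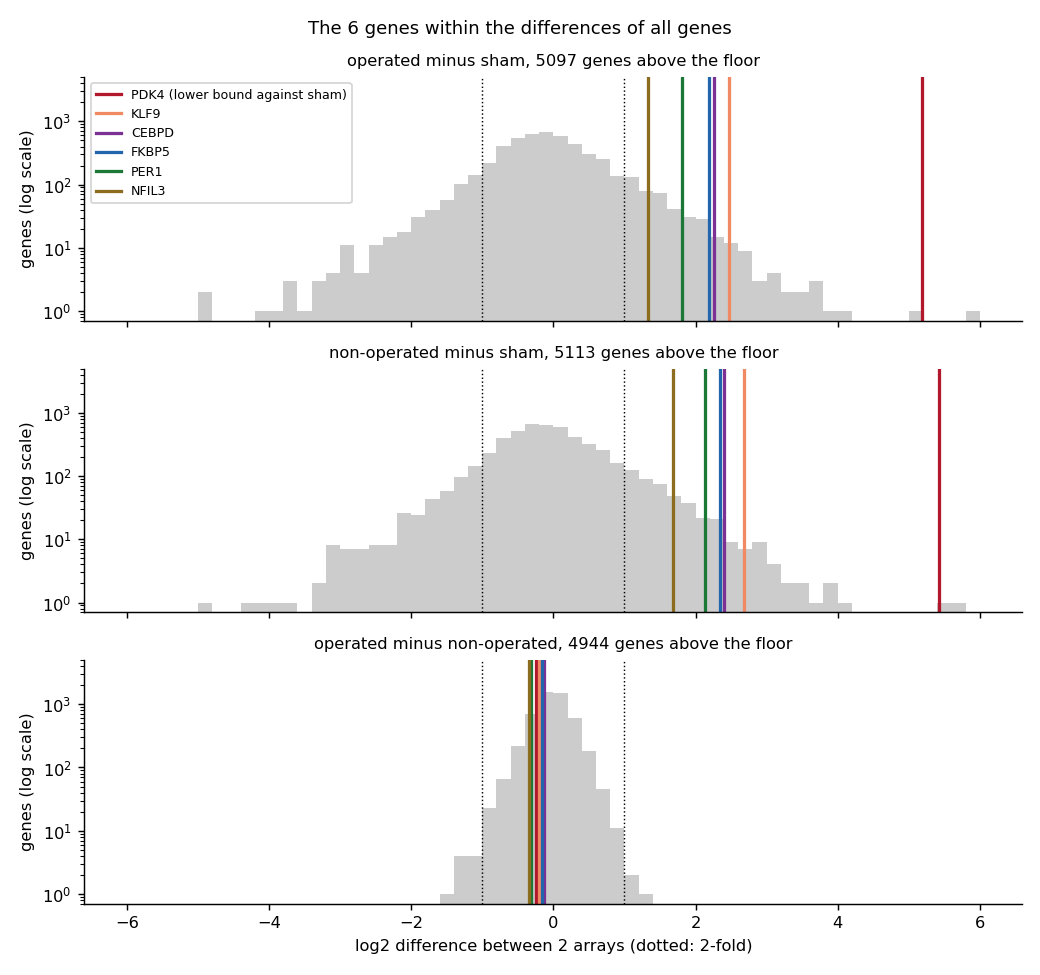
Histograms of log2 differences between 2 arrays (x axis) over all genes above the floor, with the number of genes on a log scale (y axis) and a coloured line for each of the 6 genes. Dotted lines mark 2-fold. The 6 genes lie between 1.34 and 5.18 in operated minus sham and between 1.68 and 5.43 in non-operated minus sham, with PDK4 a lower bound in each, and between -0.35 and -0.13 in operated minus non-operated.

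The wider list of genes known to be induced by glucocorticoids held 41 symbols, of which 27 had a probe set and 23 lay above the floor in operated minus sham. Of these 23, 14 were at least 2-fold higher in the operated lung and 0 were lower, with a median difference of 1.25, beside a median of -0.11 over all genes. The non-operated lung had 18 of 22 at least 2-fold higher and 0 lower, and there the list's median was 1.47, beside -0.10 over all genes. With PDK4, KLF9, CEBPD, FKBP5 and PER1 taken out, 9 of 18 were higher in the operated lung with a median of 1.02, and 13 of 17 in the non-operated lung with a median of 1.21. The background of all genes was 8.65% higher and 8.79% lower in operated minus sham, and 8.96% and 8.55% in non-operated minus sham. This list and the others below were written with earlier results of these arrays known, so their counts are descriptions.

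KLF15, a Krüppel-like factor that acts with the glucocorticoid receptor on amino acid and lipid metabolism, read 7.35 in sham, at the edge of the floor, 9.69 in the non-operated and 9.64 in the operated lung. TSC22D3, known as GILZ and a mediator of the anti-inflammatory action of glucocorticoids, read 11.72, 13.25 and 13.23 in that order of arrays. SGK1, a kinase that raises sodium channel activity in epithelium, read 11.36, 12.76 and 12.81. For these 3 genes sham was lower than either of the other lungs by at least 1.40.

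The cell cycle inhibitor CDKN1A was higher by 2.01 in the operated and by 2.13 in the non-operated lung, and the glutamine synthetase gene GLUL by 1.25 and 1.47. CD163, the hemoglobin scavenger receptor of macrophages that glucocorticoids also induce, was higher by 2.01 and 1.996. It is counted both in this list and among macrophage markers. DUSP1, the phosphatase that ends MAP kinase signalling, differed by 0.98 and 1.04 and ANXA1 by 0.95 and 1.11, on either side of the 2-fold line. NFKBIA, the inhibitor of NF-kappa B, differed by 0.75 and 0.72. On the other side of 0 lay GADD45A at -0.97 and -0.44 and FOXO1 at -0.65 and -0.35. RGS2 was at -0.10 in the operated and 0.37 in the non-operated lung.

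The gene of the receptor itself was below 2-fold in either direction. NR3C1 has 4 probe sets, of which 2 were above the floor, and they disagreed. The stronger read 9.31 in sham, 8.56 in the non-operated and 8.35 in the operated lung, a difference of -0.95 for operated minus sham, and the other read 7.54, 7.79 and 7.74, a difference of 0.20. HSD11B1, the enzyme that regenerates active cortisol from cortisone inside cells, read 11.42, 11.33 and 11.51 and so differed by less than the spread between probe sets. HSD11B2, which inactivates cortisol, lay under the floor on all 3 arrays. Of 12 measured genes of the receptor, its chaperones and steroid supply, 0 were at least 2-fold higher in either lung. Only FKBP4 was lower, at -1.10 in the non-operated lung. The background of all genes was 8.65% higher and 8.79% lower in the operated lung, and 8.96% and 8.55% in the non-operated lung. FKBP4, a co-chaperone that competes with FKBP5 for the receptor complex, was at -0.78 in the operated lung, and the HSP90 co-chaperone PTGES3 was at -0.78 and -0.91, with a second probe set at -0.98 and -1.32.

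Inflammatory genes that glucocorticoids are known to repress went both ways. In the operated lung 2 of 10 were at least 2-fold higher and 3 lower, and in the non-operated lung 2 of 11 and 3. The lower ones were the monocyte chemokine CCL2 at -1.98 and -1.72 for operated and non-operated minus sham, the cytokine IL18 at -1.93 and -2.08 and the adhesion molecule VCAM1 at -1.63 and -1.67. PTGS2, the inducible cyclooxygenase, had lower bounds of 2.59 and 2.89, and the adhesion molecule ICAM1 was at 1.42 and 1.48. Of all genes, 8.65% were 2-fold higher and 8.79% lower in the operated lung, and 8.96% and 8.55% in the non-operated lung.

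The clock list held 26 symbols, of which 8 had a probe set and 7 lay above the floor. In each lung 4 of the 7 were at least 2-fold higher than sham and 0 were lower, namely PER1, NFIL3, CRY2 and RORA, beside 8.65% of all genes in the operated and 8.96% in the non-operated lung. PER1 and NFIL3 were chosen for being high. Without them 2 of 5 were higher in each lung, with medians of 0.37 for operated and 0.45 for non-operated minus sham, where the full list had 1.08 and 1.19. CRY2, the partner of PER proteins in repression, read 7.84 in sham, 9.03 in the non-operated and 8.92 in the operated lung. RORA, a nuclear receptor that activates BMAL1, read 7.19, 8.61 and 8.45, with sham under the floor and lower bounds of 1.29 and 1.12. With the floor raised to each array's 75th percentile the count was 2 in each lung.

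The other clock genes differed less. ARNTL, the gene of BMAL1, read 8.47 in sham and 8.84 in each of the other lungs, a difference of 0.37, within the spread between probe sets. CSNK1D, the kinase that marks PER proteins for degradation, was at 0.28 in the operated and 0.45 in the non-operated lung. Its other probe sets gave 0.35 and 0.57, and 0.07 and -0.10, so they disagreed in direction for the non-operated lung. DBP, the D-box activator opposite NFIL3, read 8.08 in sham, 6.68 in the non-operated and 7.64 in the operated lung. DBP was thus the clock gene with its highest value in sham, at -0.43 for the operated lung and at -0.77 or lower for the non-operated lung. BHLHE40 lay under the floor on all 3 arrays, and CLOCK, PER2, PER3, CRY1, NR1D1 and NR1D2 had no singly named probe set, so the phase of the clock cannot be read from these arrays.

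Relatives of the 6 genes showed which differences were shared within a family. FKBP5, KLF9 and CEBPD were themselves chosen for being high. Over all genes, 8.65% were at least 2-fold higher in the operated lung and 8.96% in the non-operated lung. Of 13 FKBP genes above the floor, FKBP5 was the one at least 2-fold higher in either lung. The same held under all 8 alternative settings tried. FKBP3, a nuclear immunophilin, was at -1.68 in the operated and -1.65 in the non-operated lung. In the KLF family KLF9, KLF15 and KLF4 were at least 2-fold higher of 5 genes above the floor in operated minus sham, with KLF4, an early response and barrier factor, at 1.18 and 1.92. KLF10 was at 0.07 and 0.04. In the C/EBP family CEBPD and CEBPB were higher of 4 genes above the floor, with CEBPB at 1.54 and 1.498 and CEBPG at 0.15 and 0.18.

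PDK4 differed from the other genes of pyruvate oxidation by size. Of 9 measured members of the pyruvate dehydrogenase complex, its kinases, phosphatases and the pyruvate carrier, PDK4 alone was at least 2-fold different from sham. This held in both lungs, but PDK4 was chosen for being high. Among all genes 8.65% were 2-fold higher and 8.79% lower in the operated lung, and 8.96% and 8.55% in the non-operated lung. The PDK4 paralog PDK3 read 8.69 in sham, 7.98 in the non-operated and 7.80 in the operated lung, a difference of -0.71 and -0.89. PDHA1, the subunit that PDK4 phosphorylates, was at 0.20 in the operated and 0.22 in the non-operated lung, and the carrier subunit MPC2 at 0.73 and 0.21. PDK1 and PDK2 had no singly named probe set.

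PDK4 also belongs to the fasting response in which fatty acids replace glucose, and genes of that response were mixed. Of 14 measured genes of fatty acid use and its PPAR and FOXO regulators, 2 were at least 2-fold higher in the operated and 4 in the non-operated lung, and 0 were lower. These were LPL, which frees fatty acids from circulating lipid, at 2.45 and 2.11, PPARG with lower bounds of 1.63 and 1.65, and in the non-operated lung ANGPTL4 at 1.08 and CPT1A at 1.06. A second LPL probe set gave lower bounds of 0.41 and 0.09. In the operated lung ANGPTL4 and CPT1A were at 0.60 and 0.53. ACADL and ACADM, enzymes of beta oxidation, were at -0.67 and -0.41 in the operated lung. Among all genes 8.65% were 2-fold higher and 8.79% lower in the operated lung, and 8.96% and 8.55% in the non-operated lung.

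**Figure D3:**
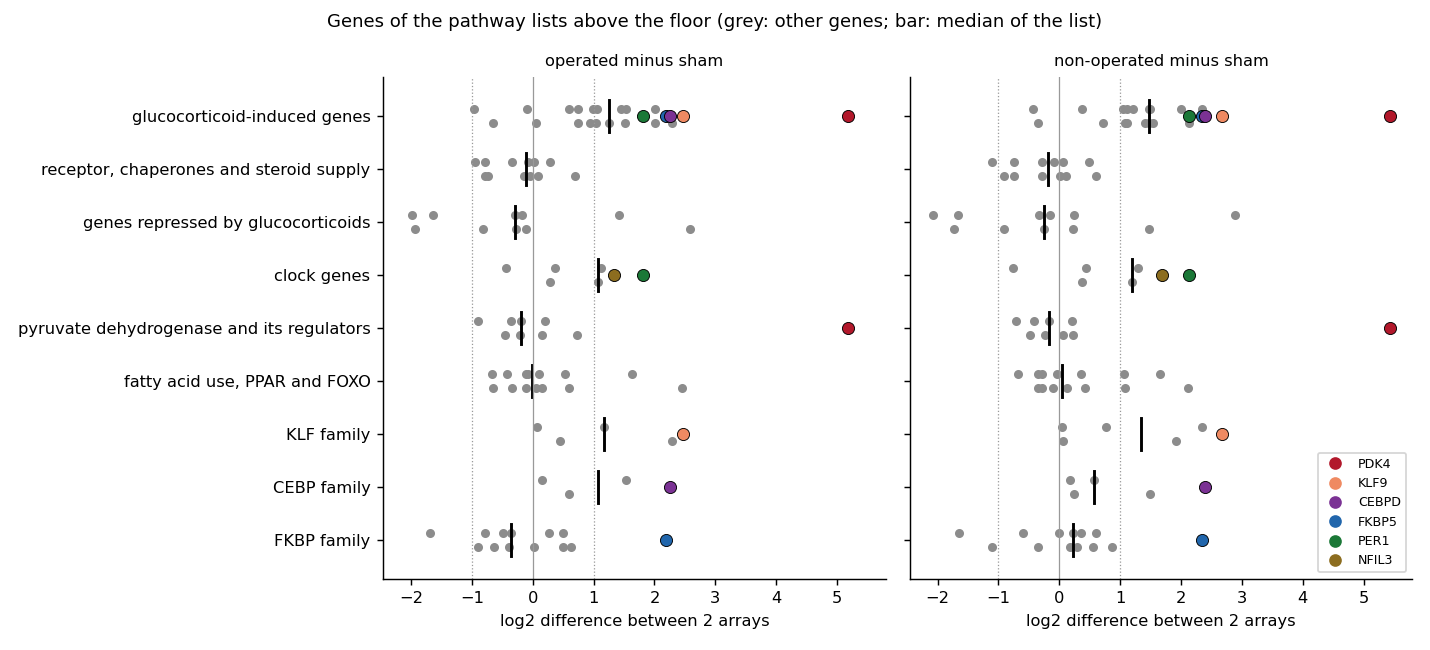
Log2 difference from sham (x axis) of each gene above the floor in 9 pathway and family lists (y axis), for the operated lung on the left and the non-operated lung on the right. Coloured points are the 6 genes, grey points the other genes of each list, the black bar is the list's median and dotted lines mark 2-fold. The median of the glucocorticoid-induced list is 1.25 in the operated and 1.47 in the non-operated lung, while that of the receptor and chaperone list is -0.11 and -0.18. The first list holds PDK4, KLF9, CEBPD, FKBP5 and PER1, which were chosen for being high. Without them its medians are 1.02 and 1.21.

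Acute phase genes, several of which C/EBP delta is known to activate, split as well. Of 6 above the floor, 2 were at least 2-fold higher and 1 lower in each lung. The hemoglobin-binding protein gene HP was at 1.28 in the operated and 1.46 in the non-operated lung, ITIH3 had lower bounds of 2.17 and 1.58, and serum amyloid SAA2 was at -1.77 and -1.74. Immediate early genes, which like PER1, CEBPD and NFIL3 answer stimuli within minutes to hours, were at least 2-fold higher in 10 of 16 in the operated lung and 11 of 16 in the non-operated lung, with 0 lower. Over all genes 8.65% were higher and 8.79% lower in the first comparison, and 8.96% and 8.55% in the second. EGR1 was at 2.01 and 2.17, JUN at 1.78 and 1.796, and MYC at 0.00 and 0.13.

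The genes closest in pattern to each of the 6 were found by Euclidean distance between log2 values centred on each gene's mean over the 3 arrays, among 5154 other genes. For KLF9 the nearest was the metalloproteinase inhibitor TIMP3, at a distance of 0.05, which read 7.55 in sham, 10.17 in the non-operated and 9.98 in the operated lung. INMT and SLA-3 followed at 0.14 each. For CEBPD the nearest were KLF15 at 0.05, the transferrin gene TF at 0.07 and BDNF at 0.08, and for FKBP5 KLF15 and BDNF at 0.09 each and B3GNT3 at 0.10. CEBPD and FKBP5 lay 0.06 from each other. These distances were all below 0.22, the smallest spread between probe sets of a gene given above, so their order cannot be resolved. In sham KLF15 read 7.35 and BDNF 7.36, just above the floor of 7.33.

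For PER1 the nearest genes were the choline kinase CHKA at 0.05, ABLIM3 at 0.08 and PEAR1 at 0.10, and for NFIL3 they were VSTM4 at 0.04, AMOTL1 at 0.06 and DOCK9 at 0.07. The distances from PER1 and NFIL3 to these genes were also below the spread between probe sets of a gene, and their order cannot be resolved. PER1 and NFIL3 lay 0.38 apart. For PDK4 the measure gave the ficolin FCN2, the platelet chemokine PPBP and the heme oxygenase HMOX1. Sham lay under the floor for PDK4, FCN2 and PPBP, so these distances and their order depend on the floor and are not given. FCN2 read 6.76 in sham, 13.002 in the non-operated and 13.13 in the operated lung, PPBP read 6.12, 11.41 and 11.19, and HMOX1 read 8.65, 12.47 and 12.29. With 3 arrays such likeness rests on 2 independent differences per gene.

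Genes next to the 6 on the chromosomes were also looked up, taking 2 protein-coding genes on each side in the RefSeq order of Sscrofa11.1. Of 24 such neighbours 7 had a probe set, and 5 were above the floor in operated minus sham. Of these 5, 3 were at least 2-fold higher and 0 lower, beside 8.65% and 8.79% of all genes. In non-operated minus sham 8.96% of all genes were at least 2-fold higher. Whether neighbours shared a difference with the 6 genes was not tested. On either side of PDK4, PON2 was higher by 1.32 in the operated and 1.14 in the non-operated lung and DYNC1I1 by 1.67 and 1.46. TMEM2 near KLF9 was higher by 1.20 and 1.47, AUH near NFIL3 by 0.69 and 0.64, and PRRX1 near CEBPD was at -0.24 or lower in each. VAMP2 near PER1 was above the floor in the non-operated lung alone, with a lower bound of 0.03 there. MCM4 near CEBPD was under the floor on all 3 arrays. The 4 neighbours of FKBP5 had no named probe set.

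The lung label was checked against its markers, and other cell types were read beside the 6 genes. SFTPC, which encodes surfactant protein C of alveolar type 2 cells, read 14.44 in sham, 14.56 in the non-operated and 14.52 in the operated lung, close to the highest signal of each array. All 8 measured lung epithelium markers were above the floor in both ischemia-reperfusion lungs and 7 of 8 in sham. The exception was AGER, which read 5.01 in sham, 8.27 in the non-operated and 8.13 in the operated lung. Its lower bounds were 0.81 for operated and 0.94 for non-operated minus sham. Their summed signal was 37208 in sham, 51642 in the non-operated and 54596 in the operated lung. In the operated lung 4 of the 8 were at least 2-fold higher than sham, with a median difference of 0.93. In the non-operated lung 2 of the 8 were, with a median of 0.86. The share of all genes that were at least 2-fold higher was 8.65% in the operated and 8.96% in the non-operated lung. HOPX, a marker of alveolar type 1 cells, was at 2.40 in the operated and 2.34 in the non-operated lung, and the water channel gene AQP5 at 1.06 and 1.37. The phosphate transporter gene SLC34A2 was at 1.29 and 0.95 and SFTPB, which encodes surfactant protein B, at 1.23 and 0.11. In bulk tissue fewer cells of a type and less RNA per cell cannot be told apart.

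Markers of several other cell types moved with the 6 genes. The summed signal of 12 endothelial markers was 6713 in sham, 20153 in the non-operated and 17952 in the operated lung, and 8 of 9 above the floor were at least 2-fold higher in operated minus sham. The sum of 8 macrophage markers was 9032, 26839 and 26775, with 5 of 6 higher, and that of 7 neutrophil markers 1255, 8490 and 6972, with 3 of 3 higher and ELANE, LTF, FCN1 and PGLYRP1 under the floor on all arrays. The sum of 6 smooth muscle markers was 9642, 22287 and 20122, with 4 of 5 higher. KDR, FLT1 and TIE1 of endothelium, CD14 of macrophages, MYLK of smooth muscle and CD4 of T cells were also under the floor throughout. Over all genes 8.65% were at least 2-fold higher and 8.79% lower in operated minus sham. The sum of 9 T cell markers was 5527, 2734 and 2609, with 4 of 8 at least 2-fold lower. That of 5 B cell markers was 26808, 14446 and 14455, with 4 of 5 lower. JCHAIN, the strongest of these 5, was at -0.51 in the operated lung. CD79B and SPIB were under the floor in both ischemia-reperfusion lungs, at -3.90 or lower and -3.17 or lower in the operated lung. The part of these cell types, and of the epithelium, in the differences of the 6 genes was not tested.

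PDK4, CEBPD and KLF9 are also strongly expressed in fat, muscle and liver. ADIPOQ and LEP, defining genes of adipocytes, lay under the floor on all 3 arrays. The sum of 6 adipocyte markers was 808, 2664 and 2709 even so, with LPL, RBP4 and PPARG higher than sham. FABP4 was not higher, at -0.07 in the operated and -0.28 in the non-operated lung. Of 9 striated muscle markers 7 were under the floor throughout, including CKM, MYH7 and TNNT2, with PLN and ANKRD1 above it in both ischemia-reperfusion lungs. Of 8 liver markers 6 were under the floor throughout, including ALB and TTR, while CYP7A1, a bile acid synthesis enzyme of the liver, read 3.74, 10.94 and 11.41 and APOA1 9.87, 10.38 and 10.28. The sum of 3 red cell markers was 975.1, 1328 and 1579. The striated muscle sum was 303, 1062 and 1244 and the liver sum 1081, 3384 and 4041. Sham thus had the lowest sum in each list except those of T and B cells.

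**Figure D4:**
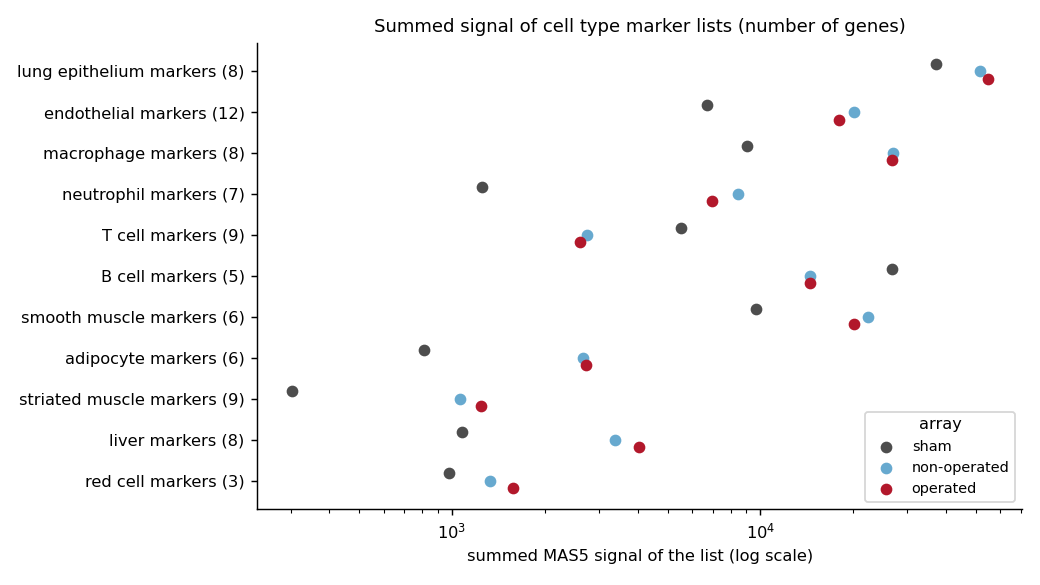
Summed MAS5 signal on a log axis (x axis) of 11 cell type marker lists (y axis, with the number of genes measured) on the sham, non-operated and operated arrays. The operated and non-operated points lie near each other in each list. Sham lies to the right of them for T and B cell markers and to the left for every other list, including the adipocyte, striated muscle, liver and red cell lists.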

How the data were processed

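Lung RNA was amplified and biotin-labelled from its 3' end, per the labels' protocols, and 3 arrays, 1 per group, were read. The deposited values are log2 signals per probe set, made with MAS5 per the submitters' processing notes. The sources used here do not give its version, scaling target or detection calls. Arrays were used as scaled by the authors. Of 23935 non-control probe sets, 10069 had 1 platform gene symbol, 198 had several and 13668 were unnamed here.

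With Python 3.11.15 and pandas 2.3.3, the probe set with the highest mean log2 signal stood for each gene, and genes above the floor (the array median) on at least 1 of 2 arrays were counted. No test was possible with 1 array per group, and precision is limited by having 3 arrays. The 6 genes and all lists were chosen with earlier results of these data known. Besides the 6, the text names up to 4 genes per list beyond 2-fold with all above-floor probe sets on 1 side, NR3C1, HSD11B1, HSD11B2, the PDK paralogs, the clock genes, and the 3 genes nearest in pattern to each of the 6. Other genes, and the chromosome neighbours, were chosen after their values were seen. Promoter sequences were not used here.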

Additional observations from a re-analysis of the deposited data

How the results depend on the processing

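The 6 genes were read under 2 other scalings, 3 other floors, a pseudocount of 16 signal units and 2 other choices of probe set. All 6 stayed at least 2-fold above sham in both lungs under each, except with all probe sets averaged, where PER1 had a lower bound of 0.79 in the non-operated lung and 5 reached 2-fold, and with the weakest probe set of each gene, where KLF9 and PER1 lay under the floor and 4 were left. With the weakest probe set the median of the genes left, most of them lower bounds, was 1.34 for operated and 1.63 for non-operated minus sham. PDK4 is a bound set by the floor, and its difference took values of 3.26 to 5.41 for operated minus sham and 3.50 to 5.66 for non-operated minus sham across the alternatives.

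Counts over all genes moved with the floor, since it decides how many weak genes are counted. At the 75th percentile 230 genes were higher and 197 lower in operated minus sham, 245 and 194 in non-operated minus sham and 1 and 4 in operated minus non-operated, and clock genes at least 2-fold higher numbered 2 in each lung. Without a floor the counts were 744 and 877, 814 and 848, and 231 and 319, beside 441 and 448, 458 and 437, and 3 and 9 as reported. Operated minus non-operated gave 47 and 63 at the 25th percentile and 105 and 160 with the pseudocount, which also gave 677 lower genes in non-operated minus sham. That comparison between lungs had 6 higher genes with probe sets averaged and 5 with the weakest probe set. No paired analysis was possible because each group is 1 array.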
